A study of Mus musculus with 19 samples.

Results

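Ribosome biogenesis and nucleolar genes were followed in mouse natural killer (NK) cells as a set of 48 genes whose products transcribe ribosomal RNA, modify and cut it, or assemble it into ribosomal subunits. The members were chosen by name through the probe set annotation of the array, using probe sets with 1 gene symbol. The brightest probe set of each gene was used. The choice of members was made with earlier results of these data known. Of the 48 genes, 47 were measured among 19752 genes on the array, and Noc2l was not analysed here. NK cells are innate lymphocytes that kill infected and tumour cells. They came from the spleens of 6-week-old male C57BL/6 mice by negative selection and were labelled with the phenotype marker NK1.1. In all, 19 samples in 9 groups were profiled, each on 1 Affymetrix Mouse Gene ST array. Cells with interleukin-2 (IL-2, 250 U/ml) plus the JAK3 inhibitor coded 6226 at 0.25, 1 and 4 µM gave 2 samples per dose. Cells with IL-2 plus the JAK1 inhibitor coded 3404 gave 1 sample at 0.0625 µM, 2 at 0.25 µM, 2 at 1 µM and 1 at 4 µM. Cells with IL-2 alone gave 4 samples, and untreated cells, without IL-2 or inhibitor, gave 3. Culture lasted 8 h per the series' design text. Only the titles of replicates 3 and 4 of untreated and IL-2 cells give a time. The other titles, among them that of untreated replicate 2, give no time. Nothing in the labels tells separate mice or cultures apart, so p-values reflect only how far these samples vary, and that variation may be technical.

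Ribosome production starts in the nucleolus, where RNA polymerase I makes a long precursor of ribosomal RNA. Small nucleolar ribonucleoproteins modify that precursor, and large assemblies of processing factors cut and fold it into the small and large subunits. Resting lymphocytes make few ribosomes, and cytokine stimulation is known to raise ribosome production before cells enlarge and divide. The transcription factor MYC is a known activator of many of these genes, and with its partner MAX it binds the DNA letters CACGTG, called an E-box.

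The deposited intensities lay on 2 scales. A high-intensity set of 7 samples had log2 medians of 7.49 to 7.59 over all probe sets, and a low-intensity set of 12 samples had 5.70 to 5.90. Both sets held untreated and IL-2 samples and samples at 0.25 and 1 µM, whereas all samples at 0.0625 and 4 µM lay in the low-intensity set. Levels below are log2 intensities on the scale of the low-intensity set, after the fitted set difference was taken from the samples of the high-intensity set. Changes are log2 differences ± standard error from limma, and a gene was called higher or lower at an adjusted p under 0.05 over all 19752 genes. Precision is limited by the small number of arrays. Untreated replicate 2 and JAK3 inhibitor 4 µM replicate 1 were singled out after the values were seen, and no outlier test was made of them. The mean member level was 7.13 in untreated replicate 2, against 6.60 and 6.91 in untreated replicates 3 and 4. It was 6.61 in JAK3 inhibitor 4 µM replicate 1, against 7.03 in replicate 2, the only other sample of that group. Several results that rest on these samples are also given without them.

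The 3 promoters below are printed because they belong to the members with the largest IL-2 changes among those that hold an E-box. Each line gives 250 bases before to 50 bases after the gene's start, 5′ to 3′ on the gene's strand, from RefSeq on GRCm38.p6, with CACGTG in capitals. Tsr1 encodes a factor of late small subunit assembly, and its window is chr11:74897830-74898129 on the plus strand. Mybbp1a encodes a nucleolar protein that binds MYB, with the window chr11:72441077-72441376 on the plus strand. Wdr43 encodes a processome protein needed for ribosomal RNA transcription, with the window chr17:71615965-71616264 on the plus strand.
Tsr1: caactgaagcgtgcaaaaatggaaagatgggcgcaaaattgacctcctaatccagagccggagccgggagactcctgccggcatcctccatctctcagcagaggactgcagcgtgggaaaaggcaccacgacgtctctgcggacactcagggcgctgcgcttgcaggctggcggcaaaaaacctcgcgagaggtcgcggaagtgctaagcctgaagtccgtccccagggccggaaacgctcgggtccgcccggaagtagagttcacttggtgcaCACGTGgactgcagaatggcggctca
Mybbp1a: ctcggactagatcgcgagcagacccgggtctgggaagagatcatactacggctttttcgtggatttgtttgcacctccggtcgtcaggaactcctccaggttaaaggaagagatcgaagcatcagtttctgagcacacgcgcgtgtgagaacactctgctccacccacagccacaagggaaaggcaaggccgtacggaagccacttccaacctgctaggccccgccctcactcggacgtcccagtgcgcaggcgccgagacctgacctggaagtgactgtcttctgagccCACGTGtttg
Wdr43: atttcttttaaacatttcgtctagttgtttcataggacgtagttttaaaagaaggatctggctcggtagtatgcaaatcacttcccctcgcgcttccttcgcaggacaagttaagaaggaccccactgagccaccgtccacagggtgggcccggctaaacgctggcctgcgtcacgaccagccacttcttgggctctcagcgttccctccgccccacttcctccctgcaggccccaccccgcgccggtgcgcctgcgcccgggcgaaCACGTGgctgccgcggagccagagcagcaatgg
The first base of the motif lay 24 bases after the start in Tsr1, 40 in Mybbp1a and 17 in Wdr43. CACGTG reads the same on both strands, so 1 search covered both. It was present in the windows of 10 of 42 members with a promoter entry (23.8%), in 16 of 94 other ribosome biogenesis genes (17.0%) and in 1473 of 15483 genes of the array (9.5%). The other members that hold it were Nop2, Utp20, Utp18, Ltv1, Grwd1, Imp4 and Pes1. Of the 10 member matches, 7 lay after the start (70.0%), against 223 of 1755 matches in all array genes (12.7%), a measure chosen after the positions were seen. The median IL-2 change was 0.92 in the 10 members with the motif and 0.88 in the 32 without it. A match is a description of the letters in the window and says nothing about binding.

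IL-2 raised most of the set. After IL-2, 43 of 47 members were higher than in untreated cells and 0 were lower, where 6.56% of all genes were called higher and 2.59% lower. The median member change was 0.89, against -0.01 over all genes, and the member changes ranged from 0.19 to 1.63. At least a 2-fold rise was seen in 17 members, each of which was called. The mean level of the 47 members was 7.49, 7.88, 7.83 and 7.96 in IL-2 replicates 1 to 4, against 7.13, 6.60 and 6.91 in untreated replicates 2, 3 and 4. All 4 IL-2 samples lay above all 3 untreated samples, and IL-2 replicate 1 and untreated replicate 2 lay nearest to each other. Within both intensity sets, every IL-2 sample lay above every untreated sample for 41 of 47 members, where 11.2% of all genes showed this order. The members without it were Polr1c, Fbl, Wdr3, Pes1, Nip7 and Ftsj3. Rrs1 was counted with it, though IL-2 replicate 1 and untreated replicate 2 of the high-intensity set were both 5.43 after rounding. Within the low-intensity set alone (2 samples against 2) the median member change was 1.15, and within the high-intensity set (2 against 1) it was 0.51. Without untreated replicate 2, the only untreated sample in the high-intensity set, 45 members were called and the median was 1.11.

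**Figure D1:**
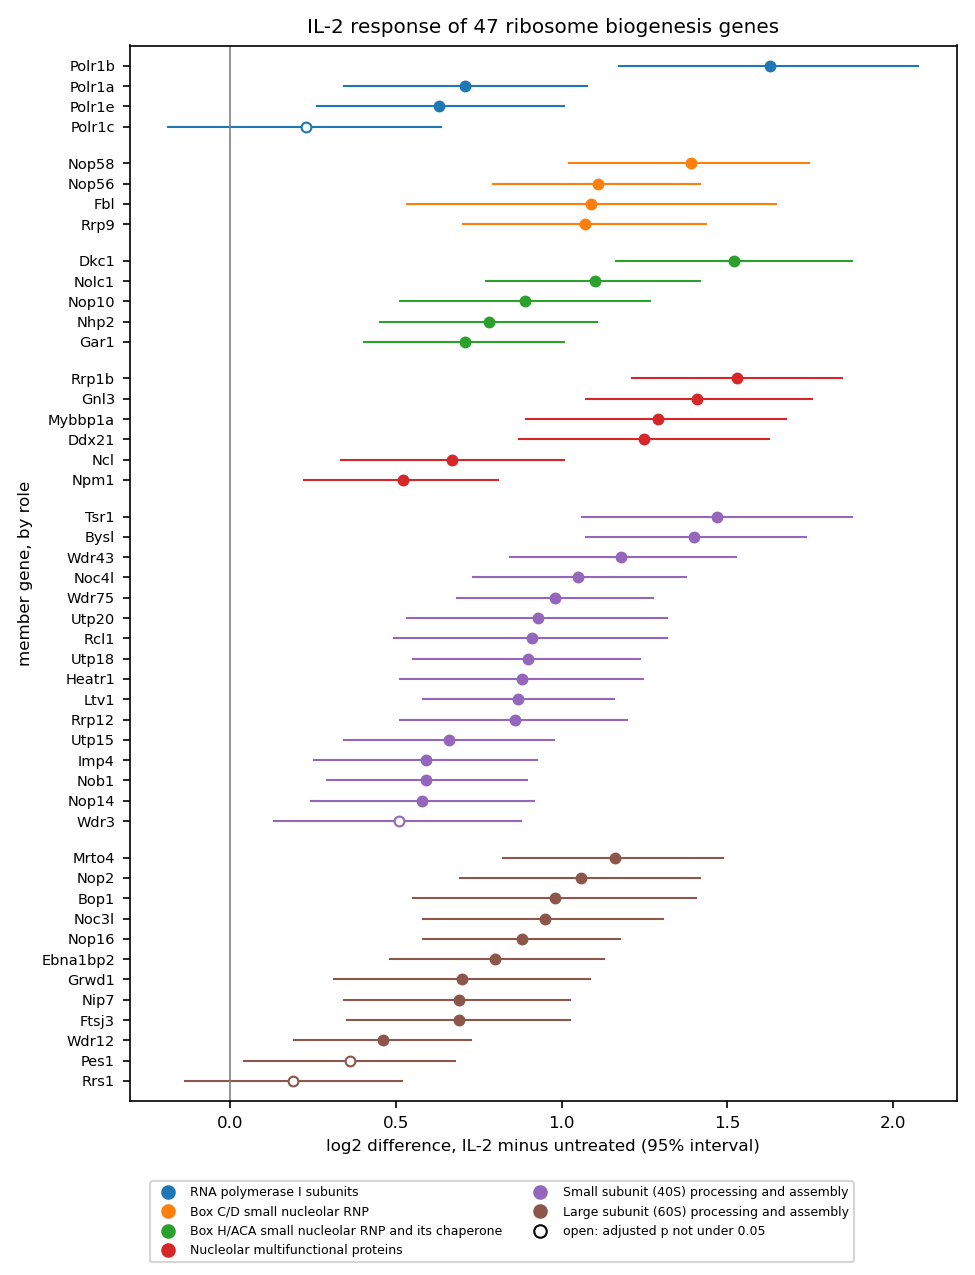
Log2 difference of IL-2 (4 samples) minus untreated (3 samples) for each of 47 members, grouped by role, with 95% intervals as bars and members that were not called as open points. All points lie above 0, from 0.19 for Rrs1 to 1.63 for Polr1b.

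RNA polymerase I subunits differed among themselves. After IL-2, 3 of 4 were higher, with a median change of 0.67. Polr1b, a subunit of the catalytic core, had levels of 8.59, 8.86, 8.86 and 8.93 in IL-2 samples, against 7.56, 6.48 and 7.50 in untreated samples. The groups did not overlap, and untreated replicate 3 was more than 1 log2 unit below the other untreated samples. The change of Polr1b was 1.63 ± 0.22 (adjusted p = 2.94e-05), a 3.09-fold rise and the largest of the set. Polr1a, the largest catalytic subunit, rose by 0.71, and Polr1e, a subunit that takes part in initiation, rose by 0.63. Polr1c, which is shared with RNA polymerase III, had levels of 8.19, 8.54, 8.47 and 8.76 with IL-2, against 8.58, 8.03 and 8.17 untreated. These groups overlapped, since untreated replicate 2 lay above 3 of the IL-2 samples. Its difference of 0.23 was not called (adjusted p = 0.625). Without untreated replicate 2 and JAK3 inhibitor 4 µM replicate 1 it was 0.44 and was called (adjusted p = 0.0315). Within the high-intensity set it was -0.22.

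All 4 members grouped under the box C/D small nucleolar ribonucleoprotein were higher, with a median of 1.10. Nop58, Nop56 and Fbl encode proteins of the particle that places methyl groups on ribosomal RNA. Nop58, a core protein of this particle, had levels of 6.52, 7.21, 7.09 and 7.27 in IL-2 samples, against 5.91, 5.52 and 5.48 in untreated samples. The lowest IL-2 sample lay above the highest untreated sample. Nop58 rose by 1.39 ± 0.17 (adjusted p = 1.41e-05), a 2.61-fold change. Its partner Nop56 rose by 1.11, the methyltransferase gene Fbl by 1.09, and Rrp9, which encodes a protein of the particle that guides early cuts of the precursor, by 1.07. Fbl was measured by 2 probe sets that differed within the low-intensity set, with IL-2 minus untreated differences of 0.97 and 1.49, and were closer within the high-intensity set, at 0.52 and 0.45.

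All 5 genes of the box H/ACA particle, which turns uridines of ribosomal RNA into pseudouridines, were higher too, with a median of 0.89. Dkc1 encodes its pseudouridine synthase, dyskerin. As deposited, the intensity of Dkc1 was 861 and 1179 in IL-2 replicates 1 and 2, against 488 in untreated replicate 2 (high-intensity set). In the low-intensity set it was 203 and 199 in IL-2 replicates 3 and 4, against 52.7 and 59.3 in untreated replicates 3 and 4. The groups did not overlap in either set. On the common log2 scale Dkc1 was 7.08, 7.53, 7.66 and 7.64 with IL-2, against 6.26, 5.72 and 5.89 untreated. It rose by 1.52 ± 0.17 (adjusted p = 3.95e-06), a 2.87-fold change. The chaperone of the particle, Nolc1, rose by 1.10, and its core proteins rose by 0.89 (Nop10), 0.78 (Nhp2) and 0.71 (Gar1).

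Nucleolar proteins with several functions were higher in 6 of 6 genes, and their median of 1.27 was the highest of the 6 role groups. Rrp1b, which encodes a nucleolar protein bound to precursors of the large subunit, had levels of 6.99, 7.65, 7.28 and 7.44 in IL-2 samples, against 6.05, 5.65 and 5.74 in untreated samples. The samples of the groups were separated by almost 1 log2 unit. The rise of 1.53 ± 0.15 (2.88-fold) had the smallest adjusted p of the set (8.58e-07). Gnl3, which encodes the GTPase nucleostemin, rose by 1.41, Mybbp1a by 1.29 and the RNA helicase gene Ddx21 by 1.25. The genes of the abundant nucleolar proteins nucleolin (Ncl, 0.67) and nucleophosmin (Npm1, 0.52) had the smallest rises of this group.

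Of 16 small subunit factors, 15 were higher, with a median of 0.89. Bysl, which encodes a factor of late small subunit assembly, had levels of 6.19, 6.86, 6.68 and 6.95 in IL-2 samples, against 5.41, 4.97 and 5.43 in untreated samples. These groups did not overlap, and IL-2 replicate 1 was the lowest of its group. Bysl rose by 1.40 ± 0.16 (adjusted p = 4.21e-06), a 2.64-fold change. Among other late factors, Tsr1 rose by 1.47, the export factor gene Rrp12 by 0.86, Ltv1 by 0.87, and Nob1, the nuclease that makes the last cut of small subunit RNA, by 0.59. Among processome proteins that also bear on polymerase I transcription, Wdr43 rose by 1.18, Wdr75 by 0.98, Heatr1 by 0.88 and Utp15 by 0.66. The remaining processome and early assembly genes rose by 1.05 (Noc4l), 0.93 (Utp20), 0.91 (Rcl1), 0.90 (Utp18), 0.59 (Imp4) and 0.58 (Nop14). The processome gene Wdr3 differed by 0.51 and was not called (adjusted p = 0.0992).

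Among measured large subunit factors, 10 of 12 were higher, with a median of 0.75. Mrto4, whose yeast counterpart holds the place of a stalk protein on the immature large subunit, had levels of 7.14, 7.53, 7.55 and 7.47 in IL-2 samples, against 6.26, 5.94 and 6.59 in untreated samples. The groups were apart by more than the range of the IL-2 samples. Mrto4 rose by 1.16 ± 0.16 (adjusted p = 4.2e-05), a 2.23-fold change. The RNA methyltransferase gene Nop2 rose by 1.06, and the methyltransferase gene Ftsj3 by 0.69. Other assembly genes rose by 0.95 (Noc3l), 0.88 (Nop16), 0.80 (Ebna1bp2), 0.70 (Grwd1, whose yeast counterpart is a chaperone of a ribosomal protein) and 0.69 (Nip7). Bop1, Wdr12 and Pes1 encode a complex that works together in large subunit maturation. Bop1 rose by 0.98 and Wdr12 by 0.46, while the difference of 0.36 for Pes1 was not called (adjusted p = 0.181). Wdr12 had 2 probe sets, with IL-2 minus untreated differences of 0.49 each within the low-intensity set. Within the high-intensity set they were 0.42 for the probe set used and 0.22 for the other. Rrs1, whose yeast counterpart helps to load a small RNA into the large subunit, had levels of 5.43, 5.89, 5.69 and 5.83 in IL-2 samples, against 5.43, 5.54 and 5.59 in untreated samples. IL-2 replicate 1 lay beside the lowest untreated sample, and the difference of 0.19 was not called (adjusted p = 0.6).

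**Figure D2:**
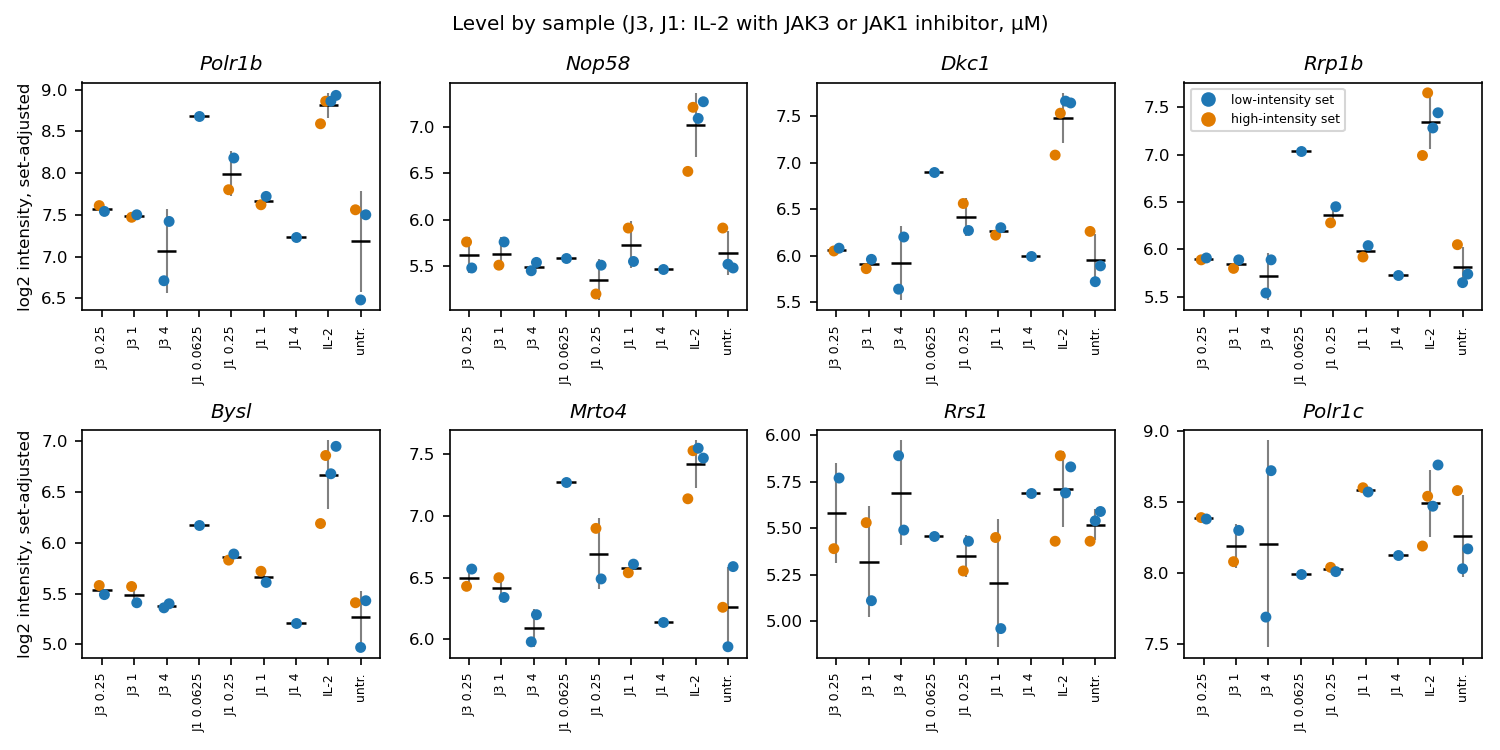
Log2 intensity on the low-intensity scale of 8 members in every sample, by group, with orange points for the high-intensity set and blue points for the low-intensity set, black lines for group means and grey bars for SD. Dkc1 reaches 7.08 to 7.66 in IL-2 samples and 5.72 to 6.26 in untreated samples, while Rrs1 and Polr1c overlap between these groups.

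Of 114 other measured genes of ribosome biogenesis, from a list of 120, 62 were higher after IL-2 and 0 were lower, with a median of 0.57. By step, 7 of 9 genes of small nucleolar ribonucleoprotein assembly, 21 of 38 small subunit genes, 28 of 46 large subunit genes, 5 of 13 genes of the RNA exosome and 1 of 8 genes of polymerase I transcription were higher. The largest rises were in Nat10, an RNA acetyltransferase gene (1.16 ± 0.17, adjusted p = 9.01e-05), and the processome gene Utp4 (1.11 ± 0.19, adjusted p = 0.000523). The lowest values were -0.30 for Nop53 (adjusted p = 0.105) and -0.13 for Nsa2 (adjusted p = 0.618), both large subunit genes and neither called. Myc rose by 2.32 ± 0.19 (adjusted p = 5.48e-08).

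Markers of other cells moved with IL-2 as well. Of the NK cell markers 8 of 10 were higher, among them Nkg7 (2.35 ± 0.16) and Prf1 (2.82 ± 0.23), and 0 of 7 T cell markers were called. Lower levels were called in 6 of 9 monocyte and macrophage markers (another was higher), in 5 of 8 neutrophil markers and in 3 of 6 B cell markers. The mean level of the monocyte and macrophage list was 6.34 to 6.72 in IL-2 samples, against 7.36 to 7.65 in untreated samples. The neutrophil list had 7.32 to 7.57 with IL-2, against 8.29 to 8.64 untreated, and the B cell list 8.68 to 8.91 with IL-2, against 9.16 to 9.40 untreated. The NK cell list had 8.83 to 9.28 in IL-2 samples, against 7.49 to 7.77 in untreated samples. None of 7 proliferation genes was called (median 0.01), and their mean level was 6.75 to 7.13 with IL-2, against 6.70 to 7.01 untreated. Array intensities have no true 0, so no marker can be read as absent. In bulk samples, fewer cells of a type and less RNA per cell cannot be told apart. The part of these markers in the change of the members was not tested.

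The JAK3 inhibitor lowered most members against IL-2 alone. JAK3 works at the gamma chain that the receptors of IL-2 and related cytokines share. Of 47 members 30 were lower at 0.25 µM (2.26% of all genes were), 37 at 1 µM (3.69%) and 38 at 4 µM (4.5%). No member was higher at these doses, where 2.74%, 2.86% and 3.01% of all genes were. The median member change was -0.78 at 0.25 µM, -0.89 at 1 µM and -0.95 at 4 µM, against 0.06, 0.02 and -0.04 over all genes. All 47 members had a negative difference at each dose, as did 6878, 8515 and 11360 of all 19752 genes at the rising doses. The mean level of the members was 7.01 and 7.02 at 0.25 µM, 6.88 and 6.93 at 1 µM, and 6.61 and 7.03 at 4 µM, each below the 7.49 to 7.96 of IL-2 samples. The count at 4 µM was 21 without replicate 1 of that dose, with a median of -0.72. At 0.25 µM the count was 9 without replicate 1 and 11 without replicate 2, and at 1 µM it was 17 without replicate 1 and 16 without replicate 2, while the medians stayed between -0.92 and -0.74. Within the intensity sets the medians were -0.87 (low) and -0.64 (high) at 0.25 µM, -0.94 and -0.82 at 1 µM, and -1.09 (low) at 4 µM.

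By role, the nucleolar proteins with several functions were lower in 6 of 6 at every dose of the JAK3 inhibitor. Dkc1 had levels of 6.05 and 6.08 at 0.25 µM, 5.86 and 5.96 at 1 µM, and 5.64 and 6.20 at 4 µM, all below the lowest IL-2 sample. It fell by 1.41 ± 0.19, 1.57 ± 0.19 and 1.56 ± 0.20 at the rising doses (adjusted p = 8.63e-05, 1.85e-05 and 3.21e-05). Rrp1b had 5.89 and 5.91 at 0.25 µM, 5.80 and 5.89 at 1 µM, and 5.54 and 5.89 at 4 µM. Its changes were -1.44, -1.49 and -1.62, the first of them the largest fall of a member at 0.25 µM. Polr1b was the single polymerase I subunit called at 0.25 and 1 µM, with changes of -1.23 ± 0.25 and -1.32 ± 0.25, and Polr1a joined it at 4 µM. Of the box C/D group 3, 3 and 4 of 4 were lower, and of the box H/ACA group 4, 5 and 5 of 5. Small subunit factors were lower in 9, 12 and 12 of 16, and large subunit factors in 7, 10 and 9 of 12. Polr1c, Wdr3, Nop14, Imp4, Pes1 and Rrs1 were not called at any dose of this inhibitor, nor was Polr1e.

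The JAK1 inhibitor lowered members at 0.25, 1 and 4 µM. JAK1 is bound to the beta chain of the receptor. At 0.0625 µM, with 1 sample, limma called 0 members lower or higher, 9 had an unadjusted p under 0.05, and 0.0152% of all genes were called lower and 0.00506% higher. The count of lower members was 17 at 0.25 µM (1.52% of all genes), 23 at 1 µM (2.31%) and 28 at 4 µM (2.63%, 1 sample). At these doses 0 members were higher, where 0.729%, 2.85% and 1.14% of all genes were. The median change was -0.33 at 0.0625 µM, -0.63 at 0.25 µM, -0.60 at 1 µM and -0.96 at 4 µM, against 0.08, 0.05, 0.08 and -0.10 over all genes. The mean level of the members was 7.40 at 0.0625 µM, 7.08 and 7.15 at 0.25 µM, 7.14 and 7.11 at 1 µM, and 6.85 at 4 µM. All these samples lay below the lowest IL-2 sample (7.49), the sample at 0.0625 µM lay nearest to it, and the 0.25 and 1 µM groups had the same mean of 7.12. Within the low-intensity set the medians were -0.43, -0.70, -0.77 and -1.06 at the rising doses, and within the high-intensity set -0.55 at 0.25 µM and -0.49 at 1 µM.

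The JAK1 counts moved with single samples. At 0.25 µM the count was 2 without replicate 1 and 1 without replicate 2 of that dose, 7 when IL-2 replicate 2 or 4 was left out, 8 when IL-2 replicate 3 was, and 29 when IL-2 replicate 1 was. At 1 µM it was 7 without replicate 1 and 2 without replicate 2 of that dose, and 15 without IL-2 replicate 4. At 4 µM, leaving out IL-2 replicate 2, 3 or 4 gave 18, 16 and 16. The median change stayed negative in each of these cases, from -0.75 to -0.56 at 0.25 µM, from -0.73 to -0.56 at 1 µM and from -1.03 to -0.89 at 4 µM.

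**Figure D3:**
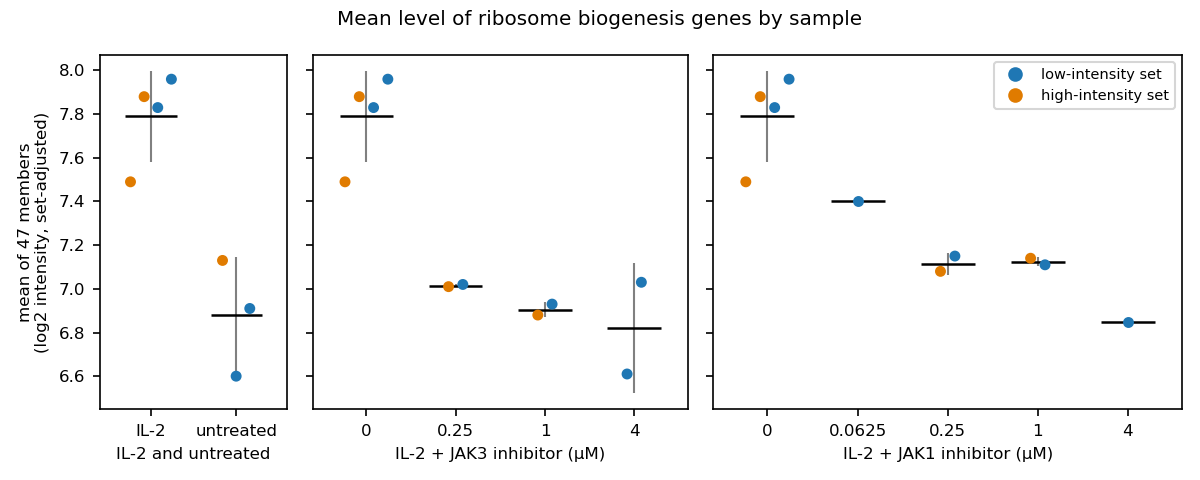
Mean log2 intensity of the 47 members in each sample on the low-intensity scale, in 3 panels for IL-2 beside untreated, the JAK3 inhibitor doses and the JAK1 inhibitor doses, with IL-2 alone as dose 0. The JAK1 inhibitor sample at 0.0625 µM lies at 7.40, IL-2 samples at 7.49 to 7.96 and untreated samples at 6.60 to 7.13.

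Nop58 stood out at the lowest JAK1 inhibitor dose. Its level there was 5.59, against 7.09 and 7.27 in the IL-2 samples of the same intensity set, and the untreated samples of that set had 5.52 and 5.48. The change of -1.43 ± 0.26 had the smallest adjusted p of the set at this dose and was not called (adjusted p = 0.0678). At 0.25 µM Nop58 had levels of 5.20 and 5.51 and was lower by the largest amount of any member (-1.67 ± 0.20, adjusted p = 0.000101). Its levels were 5.91 and 5.55 at 1 µM and 5.47 at 4 µM, so the samples of all JAK1 inhibitor doses lay below the lowest IL-2 sample. Polr1b in contrast had 8.68 at 0.0625 µM, inside the IL-2 range, then 7.80 and 8.18 at 0.25 µM, 7.62 and 7.72 at 1 µM, and 7.23 at 4 µM. Rrp1b had 7.04, also inside the IL-2 range, then 6.28 and 6.45, 5.92 and 6.04, and 5.73 at the same doses. The means of Polr1b and Rrp1b were lower at each higher dose, and those of Nop58 were not.

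Slopes over the doses were fitted for each inhibitor. A slope is the log2 change per 4-fold step of dose along a line through the fitted means of the doses, each dose counted once. For the JAK1 inhibitor a negative slope was called in 5 of 47 members (1.96% of all genes) and a positive one in 0 (0.815%). Of the members, 18 had an unadjusted p under 0.05, and the median was -0.17. They were Rrp1b (-0.43 ± 0.09, adjusted p = 0.0105), Polr1b (-0.47 ± 0.12, adjusted p = 0.046), Mrto4 (-0.35 ± 0.09, adjusted p = 0.0415), Wdr43 (-0.36 ± 0.09, adjusted p = 0.0426) and Ltv1 (-0.30 ± 0.08, adjusted p = 0.047). Nop58 had a slope of 0.00 ± 0.10, with a 95% interval of -0.20 to 0.21. Without 1 of the samples at 0.25 or 1 µM the count of slopes called was 1 to 3, being 1 without replicate 1 of either dose and 3 without replicate 2 of either dose. For the JAK3 inhibitor, over 0.25 to 4 µM, limma called 0 slopes (0.137% of all genes were called lower), 1 had an unadjusted p under 0.05 (Npm1, -0.30 ± 0.09), and the median was -0.09. Without replicate 1 of 4 µM the JAK3 median was 0.02, and without replicate 2 of 4 µM it was -0.21. Whether slopes differ between the inhibitors was not tested, and their dose ranges differ.

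By role under the JAK1 inhibitor, Polr1b was the single polymerase I subunit called, at 1 and 4 µM. Box C/D genes were lower in 3 of 4 at each of 0.25, 1 and 4 µM, and Fbl was the exception at all of them. Box H/ACA genes were lower in 2, 3 and 3 of 5, and nucleolar proteins with several functions in 2, 5 and 3 of 6. Small subunit factors were lower in 5, 7 and 10 of 16, and large subunit factors in 5, 4 and 8 of 12. Dkc1 had levels of 6.90, then 6.56 and 6.27, then 6.22 and 6.30, then 6.00 over the rising doses, all below the lowest IL-2 sample of 7.08. Its fall was 1.07 ± 0.19 on the log2 scale at 0.25 µM and 1.48 ± 0.26 at 4 µM (adjusted p = 0.00446 and 0.00132). Mrto4 had 7.28 at 0.0625 µM, inside the IL-2 range, and 6.14 at 4 µM. Bysl had 6.18 at 0.0625 µM, beside the lowest IL-2 sample of 6.19, and 5.21 at 4 µM. Polr1c had values from 7.99 to 8.60 over these samples and Rrs1 from 4.96 to 5.69, and neither was called at any JAK1 inhibitor dose.

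**Figure D4:**
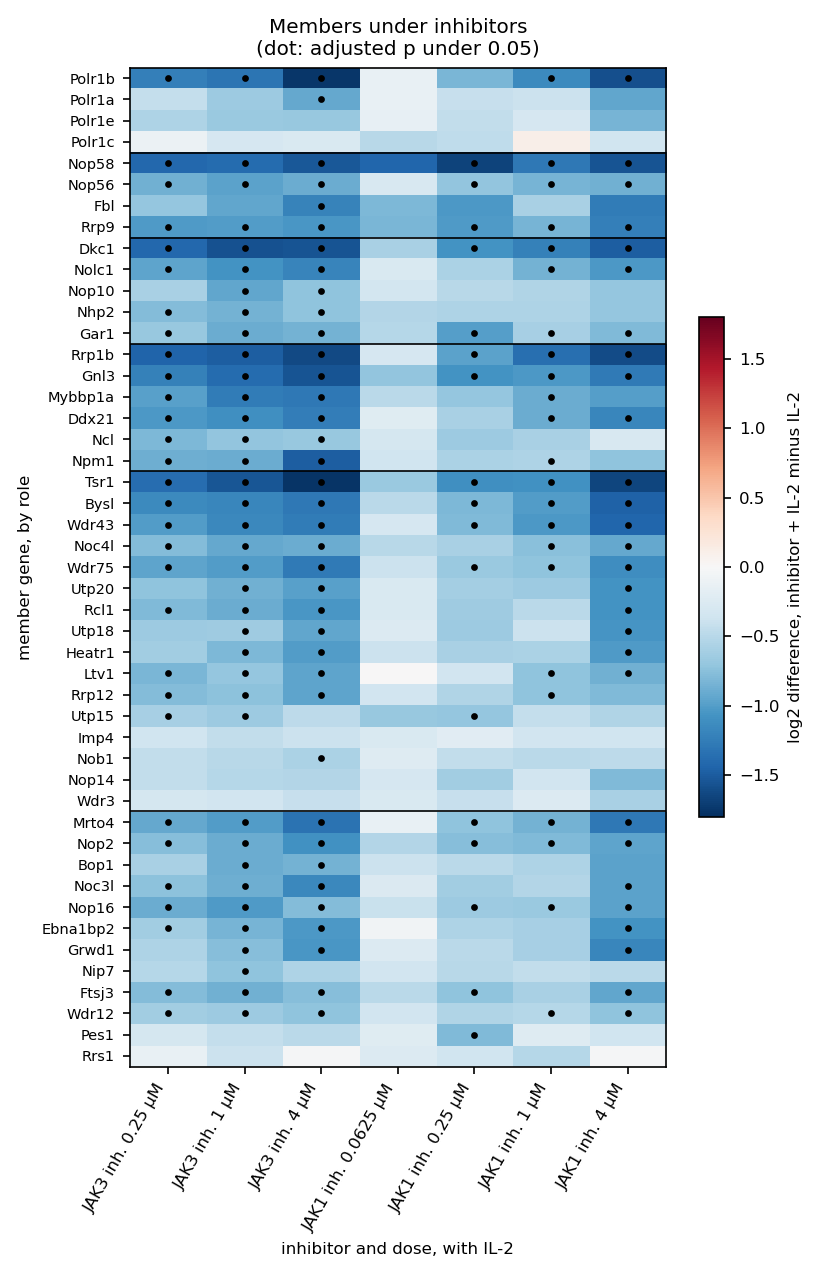
Heat map of the log2 difference from IL-2 of each member (down the page, by role) at 3 JAK3 inhibitor and 4 JAK1 inhibitor doses (across), with a dot where the adjusted p was under 0.05. Dots number 30, 37 and 38 for the JAK3 inhibitor and 0, 17, 23 and 28 for the JAK1 inhibitor.

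The other ribosome biogenesis genes had smaller median changes than the members at every dose. Both lists were chosen with earlier results of these data known, and the contrast between them was not tested. Of 114, 24, 32 and 29 were lower at the rising JAK3 inhibitor doses, with medians of -0.38, -0.45 and -0.45. With the JAK1 inhibitor 0, 9, 10 and 15 were lower, with medians of -0.26, -0.39, -0.31 and -0.45. One gene was higher at JAK3 inhibitor 1 µM and at JAK1 inhibitor 1 and 4 µM, and it was Nop53 each time (0.45 ± 0.12, 0.44 ± 0.12 and 0.60 ± 0.16). Myc differed from IL-2 by -1.83, -2.15 and -2.51 at the JAK3 inhibitor doses, and by -0.62 (not called), -0.95, -1.71 and -2.24 at the JAK1 inhibitor doses. The inhibitor comparisons share the 4 IL-2 samples with each other and with the comparison against untreated cells.

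Marker lists moved in the inhibitor samples too. Of 10 NK cell markers, 9, 9 and 6 were lower at the rising JAK3 inhibitor doses, and 0, 0, 7 and 6 at the rising JAK1 inhibitor doses. Of 9 monocyte and macrophage markers, 6, 6 and 5 were higher with the JAK3 inhibitor, and 0, 3, 5 and 5 with the JAK1 inhibitor, where 1 was lower at 4 µM of either. Of 8 neutrophil markers, 4, 5 and 3 were higher with the JAK3 inhibitor, and 0, 1, 5 and 3 with the JAK1 inhibitor. B cell markers were higher in 3, 0 and 2 of 6 with the JAK3 inhibitor and in 0, 0, 1 and 1 of 6 with the JAK1 inhibitor, and no T cell or proliferation gene was called at any dose. At 0.25 µM the mean monocyte and macrophage level was 6.96 to 6.98 with the JAK1 inhibitor and 7.66 to 7.71 with the JAK3 inhibitor, against 6.34 to 6.72 with IL-2 alone. At JAK3 inhibitor 4 µM, the proliferation list had a mean level of 5.84 in replicate 1 and 7.43 in replicate 2, and the T cell list 6.25 in replicate 1 and 7.28 in replicate 2. The part of these lists in the member values was not tested.

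The inhibitors were compared at 3 matched doses, with 2 samples against 2 at 0.25 and 1 µM and 1 JAK1 inhibitor sample against 2 JAK3 inhibitor samples at 4 µM. Limma called 0 of 47 members at any of them, with p-values adjusted over all genes of each pair. At 0.25 µM this depended on the fit. Quantile normalization gave 1 member called higher with the JAK1 inhibitor. A fit of only the 2 compared groups gave 2, with 14 unadjusted p-values under 0.05. Members called lower were not counted in these alternative fits. At 0.25 µM 0.238% of all genes were called higher with the JAK1 inhibitor and 0.213% lower, and at 1 and 4 µM 0% were. Unadjusted p-values under 0.05 were found for 3 members at 0.25 µM, 0 at 1 µM and 1 at 4 µM. The median difference, JAK1 inhibitor minus JAK3 inhibitor, was 0.11 at 0.25 µM, 0.22 at 1 µM and 0.01 at 4 µM. The 4 µM median changed sign with the JAK3 inhibitor sample used, at -0.19 without its replicate 1 and 0.24 without its replicate 2. Positive differences were seen in 37, 45 and 26 of 47 members, and in 8862, 13591 and 7664 of all 19752 genes. Over all genes the median differences were -0.02, 0.06 and -0.06. At 0.25 µM the 3 members with an unadjusted p under 0.05 were not called, and limma's smallest adjusted p of any member was 0.532. These 3 were Rrp1b (0.47, 95% interval 0.05 to 0.89), Ltv1 (0.46, interval 0.09 to 0.84) and Pes1 (-0.47, interval -0.88 to -0.05). The 95% interval lay within a 2-fold difference in either direction for 45, 46 and 46 members at the rising doses. A p that misses the threshold does not show that the inhibitors act alike.

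**Figure D5:**
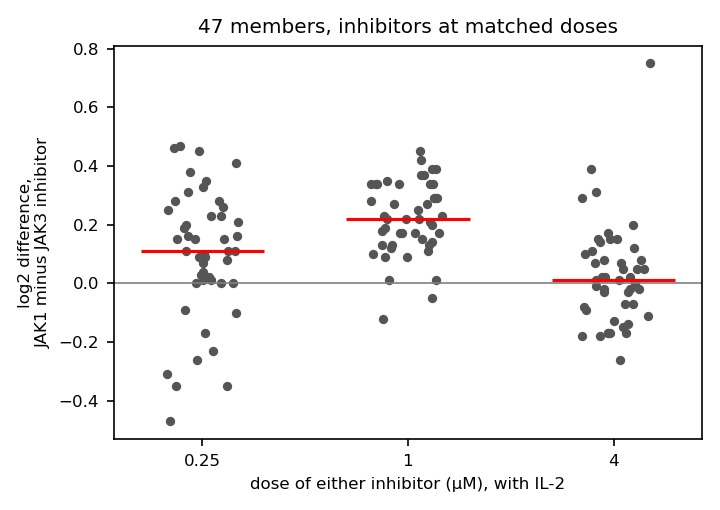
Log2 difference of JAK1 inhibitor minus JAK3 inhibitor for each of 47 members at 0.25, 1 and 4 µM, with a red line at the median. The medians lie at 0.11, 0.22 and 0.01, and Npm1 lies highest at 4 µM with 0.75.

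Npm1, chosen here after its values were seen, had the largest difference between the inhibitors among the members at the 3 matched doses. At 4 µM its level was 8.48 in the JAK1 inhibitor sample, against 7.99 and 7.47 in JAK3 inhibitor replicates 1 and 2, so the JAK1 inhibitor sample was the highest. The difference of 0.75 (95% interval 0.29 to 1.22) had an unadjusted p of 0.003 and was not called (adjusted p = 1). IL-2 samples had 9.10, 9.19, 9.37 and 9.19, and untreated samples 8.88, 8.61 and 8.59. Both JAK3 inhibitor samples at 4 µM therefore lay below all untreated samples.

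At 4 µM neither inhibitor left a called difference between the members and untreated cells. For the JAK3 inhibitor limma called 0 of 47 members and 0% of all genes, and 1 member had an unadjusted p under 0.05, Npm1 (-0.97 ± 0.17, adjusted p = 0.209). For the JAK1 inhibitor it called 0 members and 0% of all genes, and 0 members had an unadjusted p under 0.05. The median difference from untreated cells was -0.06 with the JAK3 inhibitor and -0.07 with the JAK1 inhibitor, and within the low-intensity set it was 0.09 and 0.05. Intervals lay within 2-fold of untreated cells for 46 members with the JAK3 inhibitor and 45 with the JAK1 inhibitor. The mean member level was 6.61 and 7.03 in the JAK3 inhibitor samples and 6.85 in the JAK1 inhibitor sample, against 7.13, 6.60 and 6.91 in untreated samples, so the groups overlapped. For the JAK3 inhibitor, the count was 1 with a median of 0.21 without replicate 1 of this dose, and 1 with a median of -0.28 without replicate 2.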

How the data were processed

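Per the submitters' processing notes, the authors made the deposited values with Affymetrix Power Tools and RMA, with versions and settings not stated. The deposited table holds linear intensity values of 24922 probe sets for 19 samples, which were turned into log2 here. The deposited log2 medians fell on 2 scales, and 20.0% of the probe sets in the high-intensity set, against 0% in the low-intensity set, held a value shared by at least 3 samples. The median difference between the sets was 1.66 over all genes and 1.63 over the members. Which arrays were processed together is not stated, and signal over background is unknown.

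Of the probe sets, 21425 had 1 gene symbol, 1399 had several and 2098 had none. The brightest probe set stood for each of 921 genes with several, which gave 19752 genes. Entrez identifiers matched for 21347 probe sets and 0 symbols changed. For 3 members there were 2 probe sets. Groups came from the sample titles and no column was left out.

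One model covered all samples, with group means and an intensity set term (limma 3.58.1, R 4.3.3; eBayes used a trend; residual degrees of freedom 9, prior 10.5). A group of 1 sample took its spread from the other groups. Benjamini-Hochberg adjustment ran over all genes of a comparison, with a threshold of 0.05. The fit was tested on simulated data. Python 3.11.15 with pandas 2.3.3, numpy 2.4.6 and matplotlib 3.10.9 was used for the tables, motif searches and figures. Promoters came from RefSeq.

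Members, the list of 120 other pathway genes, the 51 markers (47 measured) and the tests were chosen with earlier results of these data known. Every member is named with its IL-2 change. Per-sample values are given for the member with the smallest p in each role group and for the 2 largest and the 2 smallest IL-2 changes. The printed promoters are the 3 members with the largest IL-2 change that hold the motif. Alternatives were quantile normalization, the mean of a gene's probe sets, leaving out dim genes, a fit of only the compared groups, each intensity set alone, a replicate block and leaving out samples. Counts of members under any alternative, also those given in the Results, hold only calls in the direction of the main fit. Replicate numbers of the titles were not taken as pairs, since no label says what they share.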

Additional observations from a re-analysis of the deposited data

How the results depend on the processing

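Counts below are members, out of 47, called in the direction of the main fit, and calls in the other direction were not counted. That direction was higher for IL-2 and for JAK1 inhibitor against JAK3 inhibitor. It was lower for all other comparisons and for both slopes. Each inhibitor comparison is against IL-2 alone unless another group is named. Quantile normalization gave 1 for JAK1 inhibitor 0.0625 µM, 32 for 0.25 µM, 35 for 1 µM, 14 for the JAK1 inhibitor slope and 1 for JAK1 inhibitor against JAK3 inhibitor at 0.25 µM. A fit of only the compared groups gave 1, 44, 39, 23 and 2 for the same 5 results. Within the low-intensity set, which has fewer samples, the counts were 6 for JAK3 inhibitor 0.25 µM, 6 for 1 µM and 22 for 4 µM, 1, 1, 5 and 9 for the JAK1 inhibitor doses from low to high, and 0 for the JAK1 inhibitor slope. Within the high-intensity set, with 1 untreated sample and 1 sample per inhibitor group, limma called 0 members for IL-2, for either JAK3 inhibitor dose and for either JAK1 inhibitor dose, with unadjusted p under 0.05 for 6, 11, 16, 3 and 6. That fit has 7 arrays in 6 groups and so 1 residual degree of freedom, and its lost calls say little about the differences. There 6 named members lost their IL-2 call (adjusted p = 0.757) with log2 differences of 1.16 (Polr1b), 0.96 (Nop58), 1.04 (Dkc1), 1.27 (Rrp1b), 1.11 (Bysl) and 1.07 (Mrto4), and Polr1c reversed to -0.22 (not called). Untreated replicate 2 and JAK3 inhibitor 4 µM replicate 1 were also left out together, a choice made after the data were seen. The counts were then 46 for IL-2, 1 for JAK1 inhibitor 0.0625 µM, 40 for 0.25 µM and 14 for the JAK1 inhibitor slope. The causes of these moves were not tested.

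With the replicate number as a block, the counts were 15, 18 and 6 for the JAK3 inhibitor doses, 3, 8 and 9 for JAK1 inhibitor 0.25, 1 and 4 µM, and 27 for the JAK1 inhibitor slope. Median changes were then -0.47, -0.58 and -0.40 for the JAK3 inhibitor doses and 0.37, -0.36, -0.38 and -0.72 for the JAK1 inhibitor doses, so the median at 0.0625 µM turned from negative to positive. At 4 µM the medians also changed sign, to -0.24 for JAK1 inhibitor against JAK3 inhibitor, 0.54 for JAK3 inhibitor against untreated and 0.33 for JAK1 inhibitor against untreated, as did that of the JAK3 inhibitor slope, to 0.03. No other comparison's median changed sign with the block, and IL-2 had 45 calls and a median of 1.00. The numbers are not known to pair the samples. Residual correlations of same-numbered samples of different groups ran from -0.54 to 0.70. This is a weak check, since the fitted group mean makes the 2 residuals of any group of 2 samples mirror each other.

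Without 1 sample at a time, the counts ranged from 33 (without IL-2 replicate 4) to 45 for IL-2, from 9 to 33, 16 to 40 and 21 to 41 for the JAK3 inhibitor doses, and from 0 to 1, 1 to 29, 2 to 29 and 16 to 34 for the JAK1 inhibitor doses. They ranged from 0 to 0 for each matched pair and for JAK1 inhibitor 4 µM against untreated, from 0 to 1 for JAK3 inhibitor 4 µM against untreated and for the JAK3 inhibitor slope, and from 1 to 3 for the JAK1 inhibitor slope. A sample that was the only one of its group was never left out. Over all alternatives, 123 recomputed counts stayed within 1.5 times the reported count, or at 0 where the reported count was 0. The other 60 did not.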
